A study of Mus musculus with 4 samples.

Results

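Rab proteins are small GTPases that mark the membranes of a cell and decide where its vesicles go. The genes described here are all 59 rows of the expression table, out of 56793, whose symbol is Rab followed by a number and at most 1 letter. RNA was measured in sorted mouse bone marrow cells labelled as megakaryocytes, the cells that shed platelets, in 2 libraries labelled young and 2 labelled old. All 4 carry the genotype label Blc6, no treatment is given, and the labels state neither the ages nor the sorting gate nor how many animals went into a library, so p-values measure only the spread between these libraries, which may be technical. The series title places the samples in a study of platelet factor 4 and the ageing of blood stem cells, and the comparison made here is old against young.

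A Rab protein cycles between a GDP-bound form in the cytosol and a GTP-bound form on a membrane. Exchange factors (GEFs) load GTP and switch it on, GTPase-activating proteins (GAPs) switch it off, and effectors such as motors, tethers and fusion regulators bind the active form. In megakaryocytes the family is known for granules: Rab27a and Rab27b act in the formation and release of dense granules, and Rab32 and Rab38 act in the delivery of cargo to dense granules and other lysosome-related organelles. Loss of the machinery that loads Rab32 and Rab38 causes Hermansky-Pudlak syndrome, in which platelets lack dense granules.

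The shared anchor of the family is visible in the coding sequence. Geranylgeranyl groups are attached to cysteines at the carboxyl end of a Rab protein and hold it in the membrane. In GENCODE release M21 transcripts (assembly GRCm38), all 59 Rab genes had at least 1 cysteine codon (TGT or TGC) among the last 5 codons before the stop, and 50 had at least 2, against 12.6% and 1.93% of 21504 mouse genes with a complete coding sequence. The last 24 coding bases of members that carry the results are shown 5′ to 3′ on the coding strand, with those cysteine codons in capitals, because they show both the shared anchor and how its layout differs between granule members.
Rab27a: aaggagaaggggttgTGTggcTGT
Rab32: acaaagcccaggtcccagTGCTGC
Rab38: agctgctctggcTGTgccaaatcc
Rab29: ccctcctctggctggacaTGCTGC
Rab44: accaagagagctggcTGCTGCcac
Rab7: gcctccgcagaaagcTGCagtTGT
Rab5c: agccggagccagTGCTGCagcaac
These lie in the last coding exon at chr9:73095430-73095453 (+ strand) for Rab27a, chr10:10546305-10546328 (− strand) for Rab32, chr7:88490734-88490757 (+ strand) for Rab38, chr1:131872554-131872577 (+ strand) for Rab29, chr17:29148249-29148272 (+ strand) for Rab44, chr6:88000438-88000461 (− strand) for Rab7 and chr11:100716050-100716073 (− strand) for Rab5c. Rab38 has 1 of these codons, followed by 3 others before the stop, where its close relative Rab32 ends in a pair. Another cysteine codon of Rab38 (tgc) is among the bases shown but lies before the last 5 codons, so it is in lower case. Rab44 stands apart in size, with 973 codons against 194 to 295 in the other 58 members.

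Values are TPM, a measure of transcript abundance that corrects for transcript length and sums to 1000000 in every library. Genes are ranked on this scale, and sequencing depth is unknown. The authors' mean normalized count divided by TPM and exon length differed between genes (10th percentile 5.80, 90th 28.6), which limits such ranks. Immunoglobulin genes took 0.896% to 1.03% of all TPM at the young age and 13.1% to 13.3% at the old age, and this lowers the value of other genes in the old libraries under a fixed total. Changes were therefore computed as deposited and again after taking out the immunoglobulin genes and rescaling the others. The median log2 change of all genes tested was -0.10 on the first scale and 0.07 on the second. The megakaryocyte label met a mixed set of markers. Summed over 12 megakaryocyte markers, the young libraries held 1672 and 2196 TPM and the old ones 918 and 1371 TPM. Gp1bb was the lowest of the 12, at 0.105 to 0.302 TPM. Over the 4 libraries Gp1ba was at 20.5 to 49.4 TPM, Gp9 at 28.8 to 81.0 TPM and Pf4 at 433 to 832 TPM. A list of 14 neutrophil markers summed to 123540 to 145317 TPM over the 4 libraries. All 10 plasma cell markers rose (sums of 436 to 467 TPM in young and 1388 to 1492 TPM in old libraries), and all 11 erythroid markers fell (10382 to 10407 TPM in young and 3218 to 3746 TPM in old libraries). Of 13 monocyte and macrophage markers 9 fell (sums of 2202 to 2290 TPM in young and 1573 to 1697 TPM in old libraries, median log2 change -0.41), as did 9 of 11 B cell markers (median -0.60), and with immunoglobulin genes removed 4 and 7 of them were lower. How much of any Rab value came from each of these cells was not tested, and in bulk RNA fewer cells of a type and less RNA per cell cannot be told apart.

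Of the 59 Rab genes, 47 reached a mean of 1 TPM over the 4 libraries and were tested. The other 12 (Rab3b, Rab3c, Rab9b, Rab15, Rab17, Rab25, Rab26, Rab30, Rab33a, Rab39b, Rab40b and Rab42) had means of at most 0.901 TPM, and Rab3c and Rab9b were listed at 0 in 3 libraries each. Nearest to the minimum were Rab25, at a mean of 0.901 TPM and not tested, and Rab39, at 2.01 TPM and tested. The whole family held 2814 and 2880 TPM in young and 2608 and 2547 TPM in old libraries. The log2 difference in the sum was -0.14, with an exact two-sided permutation p of 0.33, the smallest that 2 against 2 allows, and it turned to 0.047 with immunoglobulin genes removed.

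A few organelle Rabs dominated. Rab7, which directs late endosomes to lysosomes, was the most abundant member in both groups and made up 12.1% of the family's TPM in young and 11.4% in old samples. Rab5c, an early endosome Rab, was next in both, at 9.63% and 8.57%. Rab1b, which acts between the endoplasmic reticulum and the Golgi, held rank 3 in young and rank 4 in old samples, and Rab44 rank 5 in young and rank 3 in old. Rab27a held rank 4 in young and rank 5 in old samples, ahead of Rab3d, a Rab of secretory granules. The platelet granule members named with the family ranked lower by TPM. Rab38 and Rab27b were at ranks 27 and 31 of 59 in young and 29 and 34 in old samples. The authors' mean normalized count, not corrected for length, was 14979 for Rab27b and 5232 for Rab44. Divided by mean TPM times exon length in kilobases, it was 99.3 for Rab27b and 5.95 for Rab44. The median over 1202 genes was 10.3, so count and TPM still differed for this pair with length taken into account. Why the TPM ranks go the other way was not tested.

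**Figure D1:**
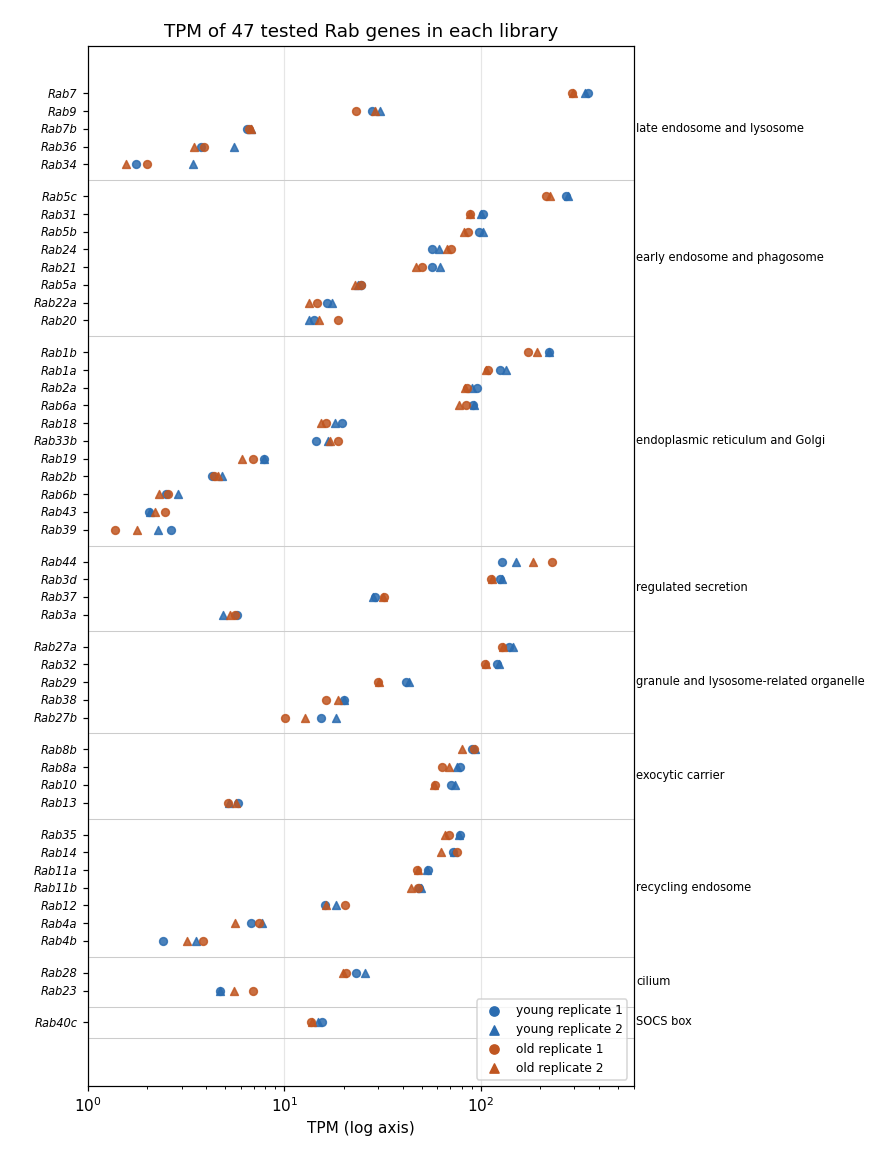
TPM on a log axis of the 47 tested Rab genes (rows, grouped by the compartment each is known for) in the 2 young and 2 old libraries (points). Rab7 sits highest, at 291 to 352 TPM, Rab44 is the clearest case with old points to the right of young ones, and Rab27b and Rab38 lie between 10.1 and 20.1 TPM.

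Between old and young samples, 1 Rab gene rose and 5 fell in limma's test across all 16073 genes (adjusted p under 0.05). Rab44 was higher in old samples, and Rab29, Rab5c, Rab10, Rab1a and Rab7 were lower. Across all genes tested 19.9% were called, 5.2% higher and 14.7% lower, so 6 of 47 (12.8%) was no larger a share than the background. The median log2 change of the 47 members was -0.17, against -0.10 for all genes. Log2 changes ran from -0.52 for Rab27b to 0.56 for Rab44, 36 were below 0 and 11 above, and standard errors were 0.05 to 0.27. In 26 members both old libraries lay below both young ones, in 7 both lay above, and 14 overlapped, while among all genes tested 67.9% did not overlap, 46.1% below and 21.8% above. With immunoglobulin genes removed, where 11.5% of all genes were called (8.2% higher and 3.27% lower), 3 members were higher (Rab44, Rab24 and Rab37) and 1 was lower (Rab29). The members' median on that scale was 0.012 against 0.067 for all genes, and Rab44 and Rab29 were called on both scales. Under median-ratio scaling, where 5.92% of all genes were called higher and 5.59% lower, Rab44 was higher and Rab29 lower. With a minimum mean of 5 TPM, where 5.42% were called higher and 23.9% lower, 1 member was higher and 8 were lower of 40. Leaving out young replicate 1, young replicate 2 or old replicate 1 each left 0 members called, where 2.23%, 2.95% and 5.66% of all genes were. Without old replicate 2, where 14.5% of all genes were called, Rab44 rose and Rab29, Rab5c and Rab1b fell. At an unadjusted p under 0.05 there were 8, 3 and 19 members in those first 3 fits, and 21 with all libraries.

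**Figure D2:**
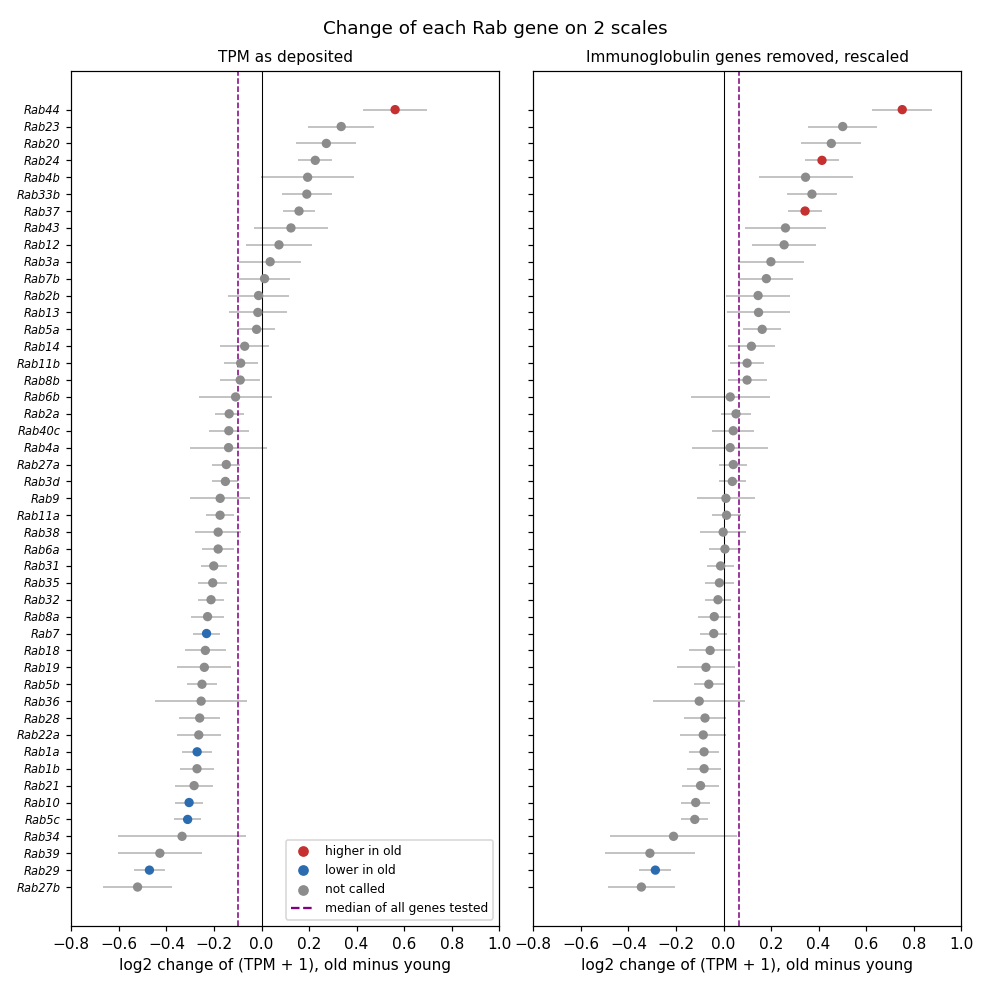
Log2 change (old minus young) of each of the 47 tested Rab genes with its standard error, for TPM as deposited (left) and after immunoglobulin genes were removed and the rest rescaled (right). The dashed line is the median of all genes tested, at -0.10 on the left and 0.07 on the right. Rab44 lies farthest right in both panels, and Rab27b and Rab29 lie farthest left in the left panel.

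In the group of granules and lysosome-related organelles, all 5 log2 changes were below 0 as deposited. Rab27a lay above 0 after the immunoglobulin genes were taken out. Rab29 alone passed limma's test, and the platelet granule members described above (Rab27a, Rab27b, Rab32 and Rab38) did not. Rab27b, whose loss in mice impairs dense granule number and release, was at 15.4 and 18.2 TPM in young and 10.1 and 12.8 TPM in old libraries. Both old libraries lay below both young ones. Its log2 change was -0.52 (SE 0.15, 95% interval -0.89 to -0.15), with a limma adjusted p of 0.0634, and -0.35 (adjusted p 0.158) with immunoglobulin genes removed. In the authors' deposited table of changed genes Rab27b stands at a log2 fold change of -0.34, with SE 0.15 and adjusted p 0.0264. How that fold change was scaled is not stated, so its size cannot be set directly against limma's. Over the alternatives the adjusted p of Rab27b ranged from 0.0495 to 0.255, under the threshold with robust variances only. Rab27a, its paralog that also serves neutrophil granules, was at 139 and 147 TPM in young and 128 and 130 TPM in old libraries, a log2 change of -0.15 (SE 0.06, adjusted p 0.130) that turned to 0.041 with immunoglobulin genes removed. The ratio of the pair does not move with the fixed total. The log2 ratio of Rab27b to Rab27a was -3.17 and -3.01 in young and -3.66 and -3.34 in old libraries, lower in both old libraries, with an exact permutation p of 0.33, the smallest possible. The difference of -0.41 was -0.25 without old replicate 1 and -0.57 without old replicate 2.

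Rab38, which guides enzymes and transporters to lysosome-related organelles, had 20.1 TPM in each young library against 16.3 and 18.8 TPM in the old pair. Both old values were below the young ones, and the means were 20.1 and 17.6 TPM with an SD of 1.77 TPM (n = 2) among the old libraries. The log2 change was -0.18 (SE 0.10, 95% interval -0.43 to 0.06), with a limma adjusted p of 0.222, and -0.0017 with immunoglobulin genes removed. As deposited it was -0.085 without old replicate 1 and -0.28 without old replicate 2. Rab32, the close relative that shares its role, was at 121 and 124 TPM in young and 105 and 106 TPM in old libraries, without overlap, with a log2 change of -0.21 (SE 0.055, adjusted p 0.0533) and -0.024 on the rescaled values. The log2 ratio of Rab38 to Rab32 was -2.60 and -2.63 in young and -2.68 and -2.50 in old libraries. The young values lay between the old ones, and the exact permutation p was 1.

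Rab29, of the same subfamily as Rab32 and Rab38 and known for recruiting the kinase Lrrk2 to Golgi and lysosomal membranes, was at 41.6 and 42.9 TPM in young and 30.0 and 30.4 TPM in old libraries. The groups did not overlap, with means of 42.2 ± 0.917 and 30.2 ± 0.300 TPM (SD, n = 2), and the old mean was 0.714 of the young one. The log2 change was -0.47 (SE 0.06, limma adjusted p 0.0191) as deposited, -0.41 (adjusted p 0.0378) under median-ratio scaling and -0.29 (adjusted p 0.0496) with immunoglobulin genes removed. With 1 library left out its adjusted p was 0.125 (young replicate 1), 0.122 (young replicate 2), 0.0510 (old replicate 1) and 0.0377 (old replicate 2).

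The platelet granule Rabs were set against the megakaryocyte signal of each library. The 11 megakaryocyte markers tested had a median log2 change of -0.76, and 2 of them fell (Gp5 and Itgb3), against a median of -0.58 and 0 called with immunoglobulin genes removed. The log2 ratio of Rab27b to the summed megakaryocyte markers was -6.76 and -6.91 in young and -6.50 and -6.75 in old libraries, higher in both old ones by a mean of 0.21, and with 1 library left out it ran from 0.090 (old replicate 1) through 0.14 (young replicate 2) to 0.33 (old replicate 2). For Rab38 the ratio was -6.38 and -6.77 in young and -5.81 and -6.18 in old libraries, higher in both old ones by a mean of 0.58, which was 0.38 without young replicate 2. Both comparisons had an exact permutation p of 0.33, the smallest possible. Within each age the library with the smaller megakaryocyte sum, replicate 1, also had the lower Rab27b value. That order was not particular to Rab27b. Rab27a, Rab32, Rab29 and Rab5c had it at both ages, while Rab38 and Rab44 did not. What the order reflects was not tested.

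**Figure D3:**
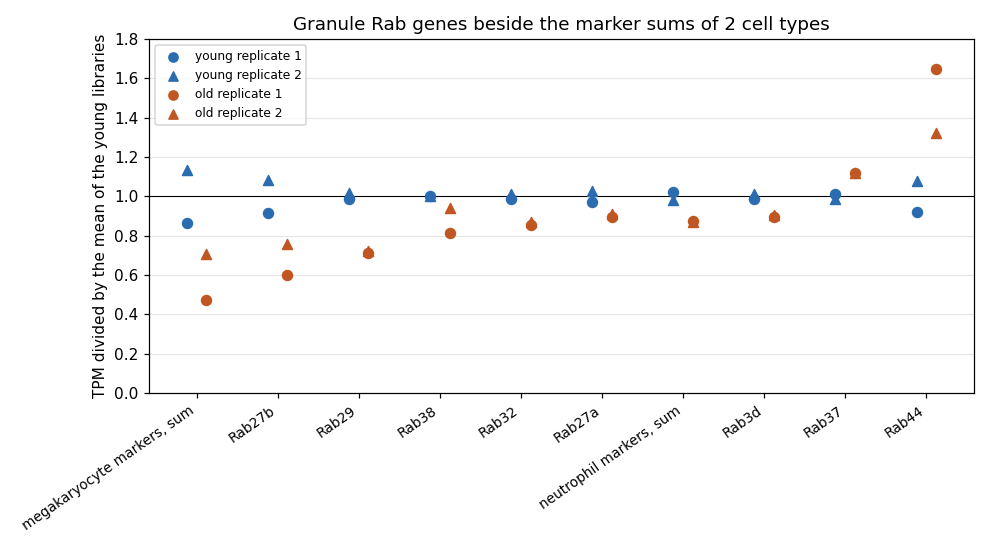
TPM of granule and secretory Rab genes and of the summed markers of megakaryocytes and neutrophils, each divided by the mean of the 2 young libraries, with 1 point per library. The megakaryocyte sum and Rab27b lie lower in both old libraries, Rab38, Rab32 and Rab27a lie nearer to 1, and Rab44 lies above 1 in both old libraries.

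Among the Rabs of regulated secretion, Rab44 rose and 0 of the other 3 tested were called as deposited. Rab44, a large member with added amino-terminal sequence that is known from granulocytes and mast cells, was at 129 and 151 TPM in young and 230 and 185 TPM in old libraries. Both old libraries were above both young ones, and its mean rose 1.48-fold. The log2 change was 0.56 (SE 0.13, limma adjusted p 0.0455) as deposited, 0.62 (adjusted p 0.0346) under median-ratio scaling and 0.75 (adjusted p 0.0242) with immunoglobulin genes removed. With 1 library left out its adjusted p was 0.192 (young replicate 1), 0.0914 (young replicate 2), 0.111 (old replicate 1) and 0.0463 (old replicate 2), and its log2 change was 0.45, 0.67, 0.40 and 0.72. The authors' deposited table of changed genes lists Rab44 at a log2 fold change of 0.43, with SE 0.14 and adjusted p 0.00248, a size not directly comparable with limma's. Of 14 neutrophil markers 1 rose (Csf3r, log2 change 0.65, limma adjusted p 0.0233) and 1 fell (Camp, log2 change -0.52, adjusted p 0.0227) as deposited. The median log2 change of the 14 was -0.19. With immunoglobulin genes removed 5 were higher (Csf3r, Cxcr2, Mmp9, Mpo, Retnlg) and 0 lower, with a median of -0.0016. Csf3r was at 603 and 675 TPM in young and 1084 and 929.9 TPM in old libraries. Camp was at 7091 and 7108 TPM in young and 4927 and 4983 TPM in old libraries. The part of neutrophils in the Rab44 result was not tested. The summed neutrophil markers, led by S100a8 and S100a9, were lower in both old libraries as deposited, but on the rescaled values were 146836 and 140462 TPM in young and 143376 and 142222 TPM in old libraries, with overlap. Of 8 basophil and mast cell markers 1 rose and 2 fell as deposited, and 3 were higher and 0 lower with immunoglobulin genes removed. The log2 ratio of Rab44 to the deposited neutrophil sum was -10.14 and -9.85 in young and -9.08 and -9.39 in old libraries, a ratio chosen after the values were seen. Rab3d was at 125 and 128 TPM in young and 113 and 115 TPM in old libraries, with a log2 change of -0.15 (adjusted p 0.106) that was 0.037 with immunoglobulin genes removed. Rab37, a Rab of secretory granules in mast cells and macrophages, was at 28.9 and 28.2 TPM in young and 31.97 and 31.95 TPM in old libraries, with a log2 change of 0.16 (adjusted p 0.147) as deposited and 0.34 (adjusted p 0.0363) with immunoglobulin genes removed. Rab3a, the synaptic vesicle Rab, was at 4.85 to 5.77 TPM in the 4 libraries (adjusted p 0.859).

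Of the 8 early endosome members tested 1 fell as deposited, and their median log2 change was -0.23, against -0.037 with immunoglobulin genes removed. Rab5c was at 271 and 277 TPM in young and 216 and 226 TPM in old libraries, without overlap. Its log2 change was -0.31 (SE 0.06, limma adjusted p 0.0277) as deposited and -0.12 (adjusted p 0.205) with immunoglobulin genes removed. Its paralogs differed in value. Rab5b was at 97.5 and 103 TPM in young and 85.9 and 82.2 TPM in old libraries (adjusted p 0.0504, log2 change -0.25 and -0.062 rescaled), and Rab5a was at 24.4 and 23.8 TPM in young and 24.6 and 22.9 TPM in old libraries (adjusted p 0.861, log2 change -0.021 and 0.16 rescaled), where the groups overlapped. Rab24, a divergent Rab linked to autophagy, went the other way, at 56.2 and 61.6 TPM in young and 70.4 and 67.6 TPM in old libraries. Its log2 change was 0.23 (adjusted p 0.0840) as deposited and 0.41 (adjusted p 0.0267) with immunoglobulin genes removed.

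Among late endosome Rabs, Rab7 was at 352 and 338 TPM in young and 291 and 296 TPM in old libraries, without overlap. The log2 change was -0.23 (SE 0.06, limma adjusted p 0.0467) as deposited and -0.041 (adjusted p 0.654) with immunoglobulin genes removed. The pseudogene Rab7-ps1, listed at 1.996 to 3.18 TPM, could share reads with Rab7, so both are uncertain to that extent. Rab9, which returns mannose 6-phosphate receptors to the Golgi, was at 27.8 and 30.8 TPM in young and 23.1 and 28.9 TPM in old libraries, with overlap (log2 change -0.17, adjusted p 0.362, and 0.0099 with immunoglobulin genes removed). Rab7b had values of 6.45 to 6.77 TPM in all 4 libraries.

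Along the secretory route from the endoplasmic reticulum to the surface, 1 of 11 endoplasmic reticulum and Golgi members tested fell, and 1 of 4 exocytic members. Of all genes tested 14.7% were called lower, so these calls do not set the route apart. Rab1a, which with Rab1b controls transport into the Golgi, was at 125 and 135 TPM in young and 109 and 106 TPM in old libraries, with a log2 change of -0.27 (SE 0.06, limma adjusted p 0.0442). Rab1b was at 222 and 221 TPM in young and 174 and 194 TPM in old libraries, with the same rounded change and an adjusted p of 0.0558. With immunoglobulin genes removed both stood at -0.082 (adjusted p 0.415 and 0.459). Rab10, an exocytic Rab, was at 70.6 and 73.5 TPM in young and 58.3 and 58.0 TPM in old libraries, with a log2 change of -0.30 (SE 0.06, adjusted p 0.0311) as deposited and -0.12 (adjusted p 0.244) on the rescaled values. Rab8b, the most abundant exocytic member, was at 89.8 and 93.2 TPM in young and 92.0 and 80.3 TPM in old libraries, where the groups overlapped (log2 change -0.090, adjusted p 0.468, and 0.099 with immunoglobulin genes removed).

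The remaining compartments gave 0 calls among 10 tested members on either scale, and 3 at an unadjusted p under 0.05 as deposited. Of the 7 recycling Rabs tested, Rab35, which acts in fast recycling to the surface, had the highest level, at 78.2 and 77.1 TPM in young and 68.8 and 65.6 TPM in old libraries (log2 change -0.21, adjusted p 0.0694, and -0.017 with immunoglobulin genes removed). Rab11a and Rab11b, the Rabs of slow recycling, had log2 changes of -0.17 and -0.088 as deposited and 0.012 and 0.099 with immunoglobulin genes removed. Rab28, linked to cilia and photoreceptors, was at 23.1 and 25.8 TPM in young and 20.5 and 19.95 TPM in old libraries (log2 change -0.26, adjusted p 0.0913, and -0.078 with immunoglobulin genes removed). Rab40c, a Rab with a SOCS box that joins a ubiquitin ligase, was at 15.6 and 14.7 TPM in young and 13.6 and 13.8 TPM in old libraries (log2 change -0.14, adjusted p 0.282, and 0.041 with immunoglobulin genes removed).

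**Figure D4:**
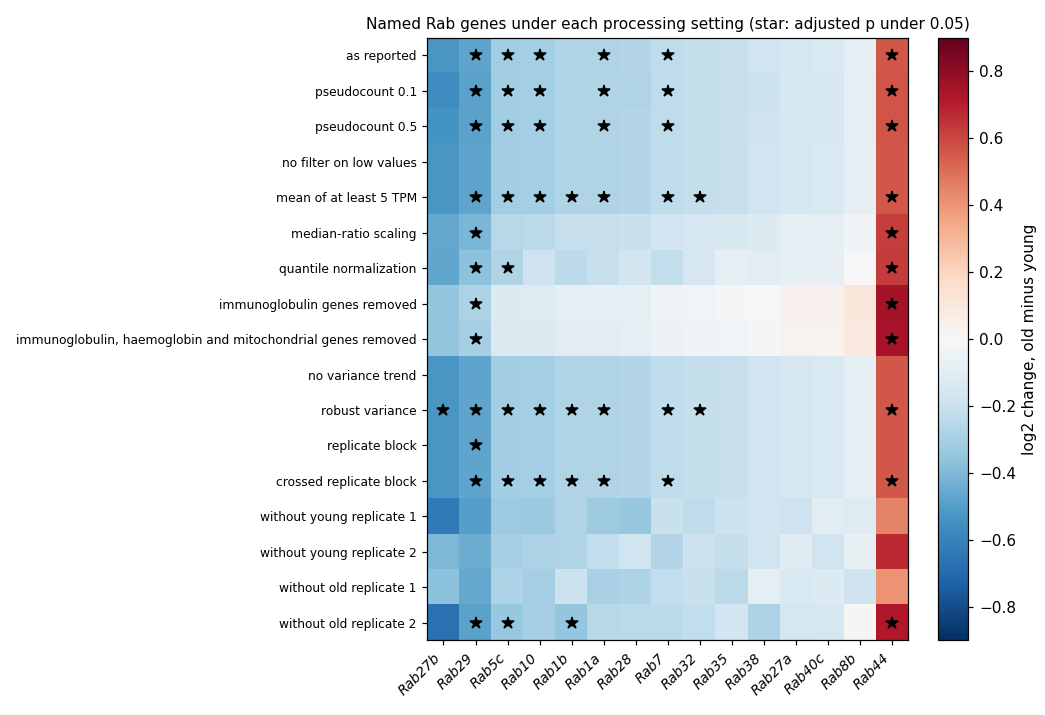
Log2 change (old minus young, colour) of the 15 named Rab genes (columns) under each processing setting (rows), with a star where limma's adjusted p was under 0.05. Rab44 stays red and Rab29 and Rab27b stay blue in every row. Where immunoglobulin genes were removed, Rab1a, Rab1b, Rab7, Rab28, Rab32, Rab35, Rab38, Rab27a and Rab40c turn pale, and Rab5c and Rab10 turn paler. Rab8b, at -0.090 as deposited, stands at 0.099 there.

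The wider Rab pathway was read from 8 lists of regulators, effectors and granule machinery. Of 151 of their genes tested, 8 rose and 17 fell as deposited, and 19 rose and 2 fell with immunoglobulin genes removed, with medians of -0.055 and 0.13. Of all genes tested, 5.2% rose and 14.7% fell as deposited, and 8.2% rose and 3.27% fell with immunoglobulin genes removed. Each list below is to be read beside these shares.

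Exchange factors changed in both directions. Of 32 GEFs tested 4 rose and 2 fell as deposited, and 4 rose and 1 fell with immunoglobulin genes removed. Rab3il1, which acts on Rab3 and Rab8, fell from 16.3 and 17.0 TPM in young to 8.76 and 7.93 TPM in old libraries, a log2 change of -0.92 (SE 0.10, limma adjusted p 0.0124) and -0.75 (adjusted p 0.0146) on the rescaled values. The 4 that rose were among 15 tested exchange factors named for the DENN domain, of which 1 fell and 10 were not called, Dennd2a, Dennd2b and Dennd2c having log2 changes of -0.44, -0.50 and -0.60. Dennd5b rose from 2.04 and 1.96 TPM to 5.35 and 4.35 TPM, a log2 change of 0.96 (SE 0.15, adjusted p 0.0239) that was 1.12 on the rescaled values. Dennd3, an exchange factor for Rab12, rose from 24.8 and 26.5 TPM to 45.2 and 36.1 TPM (log2 change 0.63, adjusted p 0.0306, and 0.82 rescaled). Rab12 itself was at 16.2 and 18.4 TPM in young and 20.4 and 16.2 TPM in old libraries, where the groups overlapped. Dennd1c and Dennd2d were the others that rose, and Dennd1a fell. Of 32 GAPs tested 3 fell and 0 rose as deposited, where 14.7% of all genes fell and 5.2% rose. Among those that fell was Tbc1d13, which acts on Rab35, from 62.5 and 61.0 TPM to 46.5 and 50.1 TPM (log2 change -0.35, adjusted p 0.0308). Tbc1d10b and Rab3gap1 also fell, with log2 changes of -0.28 and -0.32. With immunoglobulin genes removed 3 other GAPs were higher and 0 were lower, and the 3 that fell stood at -0.090 to -0.16 without passing. As deposited, 4 GAPs were higher at an unadjusted p under 0.05.

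Of 9 genes that prenylate Rabs or keep them soluble 3 fell as deposited, and 0 were lower with immunoglobulin genes removed. Gdi2, a GDP dissociation inhibitor that keeps inactive Rabs soluble, fell from 158 and 158 TPM to 128 and 126 TPM, a log2 change of -0.31 (SE 0.053, limma adjusted p 0.0250) that was -0.12 (adjusted p 0.182) on the rescaled values. Pde6d, which binds prenylated proteins, and Rabif, which stabilises nucleotide-free Rabs, fell as deposited (log2 changes -0.41 and -0.32) and did not pass on the rescaled values.

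Among 6 tested effectors of Rab27 and Rab3, Sytl4, the platelet and endocrine effector also called granuphilin, fell from 5.73 and 6.27 TPM in young to 3.13 and 3.95 TPM in old libraries. Its log2 change was -0.63 (SE 0.15, limma adjusted p 0.0443) as deposited and -0.48 (adjusted p 0.0946) with immunoglobulin genes removed. Unc13d, the Rab27 effector that primes granules for fusion, was chosen after its values were seen. It was at 84.4 and 87.0 TPM in young and 105 and 93.8 TPM in old libraries, with a log2 change of 0.21 (adjusted p 0.108) as deposited and 0.39 (adjusted p 0.0317) on the rescaled values. Of 27 endosomal and lysosomal effectors Rilpl2 rose from 29.6 and 29.4 TPM to 43.2 and 38.9 TPM (log2 change 0.46, adjusted p 0.0251, and 0.65 rescaled) and Bicd2, the dynein adaptor of Rab6, fell (log2 change -0.36, adjusted p 0.0338). With immunoglobulin genes removed 5 of the 27 were higher and 0 lower, and Bicd2 stood at -0.18 (adjusted p 0.176).

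Of 20 genes of the BLOC complexes and the AP-3 adaptor, which build dense granules, 3 fell and 0 rose as deposited. That is near the background, where 14.7% of all genes fell and 5.2% rose. At an unadjusted p under 0.05, 0 of the list were higher. Bloc1s1, a shared BLOC-1 subunit, fell from 12.5 and 11.4 TPM in young to 6.66 and 7.504 TPM in old libraries, a log2 change of -0.68 (SE 0.11, limma adjusted p 0.0242) and -0.52 (adjusted p 0.0441) with immunoglobulin genes removed. The AP-3 subunits Ap3m1 and Ap3b1 fell by 0.40 and 0.25 on the log2 scale as deposited, and on the rescaled values did not pass. Hps1 and Hps4, which together form the exchange factor of Rab32 and Rab38, were chosen after their values were seen. Hps1 was at 23.2 to 24.3 TPM in all 4 libraries (adjusted p 0.992, log2 change -0.0011 and 0.18 rescaled), and Hps4 was at 17.2 and 17.6 TPM in young and 13.0 and 16.4 TPM in old libraries (adjusted p 0.220, log2 change -0.24 and -0.059 rescaled). Of 10 HOPS, CORVET and related tether genes Vps33a fell as deposited (log2 change -0.32, adjusted p 0.0459). With immunoglobulin genes removed Vps33a stood at -0.14 (adjusted p 0.288), and 1 gene of that list was higher and 0 lower.

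The fusion machinery moved both ways. Of 17 SNARE and Sec1-family genes tested 2 rose and 3 fell as deposited, and 3 rose and 0 fell with immunoglobulin genes removed. Snap23, the SNARE of platelet release, rose from 92.8 and 97.1 TPM in young to 118 and 113 TPM in old libraries, a log2 change of 0.28 (SE 0.06, limma adjusted p 0.0390), and Vamp2 rose by 0.63 on the log2 scale (adjusted p 0.0472). The rescaled log2 changes were 0.47 and 0.82. Stx2, Snap29 and Nsf fell, with log2 changes of -0.47, -0.40 and -0.31, and none of these passed on the rescaled values. In this comparison too, leaving out young replicate 1 or young replicate 2 left 0 pathway genes called, leaving out old replicate 1 left 0 higher and 2 lower, and without old replicate 2 there were 10 higher and 7 lower.

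**Figure D5:**
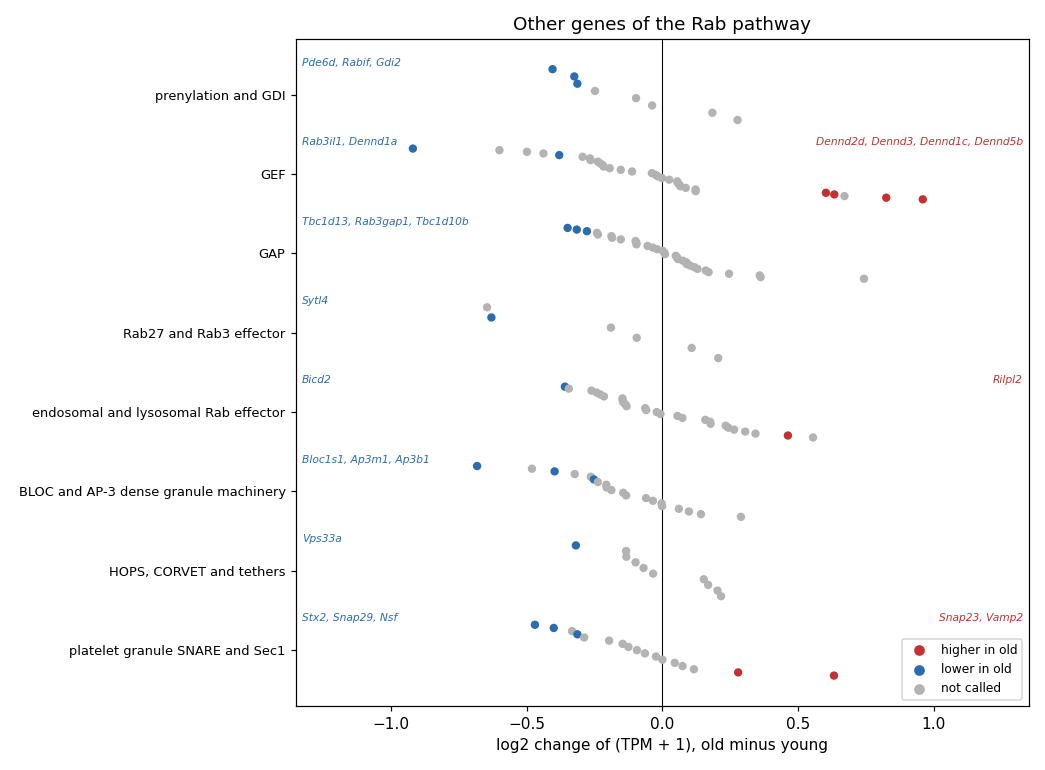
Log2 change (old minus young, TPM as deposited) of the other genes of the Rab pathway, with 1 point per gene shown and 1 row per list. Genes past the threshold are coloured and named at the side. Rab3il1 lies farthest left, at -0.92, and Dennd5b farthest right, at 0.96.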

How the data were processed

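Per the file headers, the authors deposited TPM values for every gene in 4 libraries. Per the labels' protocols, the kit enriched poly(A) RNA and kept strand. TopHat, STAR, Trim Galore and DESeq2, and the builds mm9 and GRCm39, appear in the submitters' processing notes without roles. Per the file headers, the authors' deposited comparison of old with young holds for each gene the mean normalized count as a signal, the log2 fold change, its standard error, and raw and adjusted p-values. Depth is unknown, so no counting interval is given and only the spread between 2 libraries per group limits precision.

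Genes whose mean reached 1 TPM were compared on log2(TPM + 1), which understates changes of low genes, with limma 3.58.1 in R 4.3.3 (variance trend, two-sided, Benjamini-Hochberg over all 16073 genes, threshold 0.05). Single values used exact permutation tests over samples. The script was tested on simulated data. The Rab genes and lists were chosen with earlier results of these data known. Named were Rab27b, Rab38 and their paralogs, every called Rab gene, the most abundant member of each compartment, and from each list up to 3 called genes, and others are said to be chosen after their values were seen, as are Rab members given for context. Alternatives covered pseudocounts, filters, scalings, removal of immunoglobulin genes, variance models, replicate numbers as a block and each library left out. Coding ends were read from GENCODE M21 by symbol. The enrichment tables were not used. Figures used matplotlib 3.10.9. In the pathway lists 1 gene is counted but not reported or drawn here.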

Additional observations from a re-analysis of the deposited data

How the results depend on the processing

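Of 1 Rab gene higher and 5 lower, other settings gave, as higher and lower, 0 and 0 without a filter on low values and without a variance trend, 1 and 8 where the mean had to reach 5 TPM, 1 and 1 under median-ratio scaling, 2 and 2 with quantile normalization, 3 and 1 with immunoglobulin genes removed and with immunoglobulin, haemoglobin and mitochondrial genes removed, and 1 and 9 with robust variances. Of all genes, 0.387% were called without a filter, 3.56% without a trend, 13.6% with quantile normalization, 11.3% with all 3 classes removed and 22.1% with robust variances. Without a filter 26 members, and without a trend 15, had an unadjusted p under 0.05. Pathway genes, 8 higher and 17 lower, gave 0 and 0 with no filter, 13 and 5 under median-ratio scaling, 16 and 8 with quantile normalization, 19 and 2 and then 18 and 2 after the removals, and 1 and 1 with no trend. Leaving out each library gave 0 to 1 Rab genes higher and 0 to 3 lower, and 0 to 10 pathway genes higher and 0 to 7 lower. The cause of these shifts was not tested, except that fewer libraries leave less to estimate the spread from.

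Samples share only a replicate number, and the correlation of deviations of same-numbered libraries was -0.15 over 16073 genes. With the number as a replicate block 0 Rab genes were higher and 1 lower (Rab29), and 2 pathway genes higher and 1 lower, where 3.09% of all genes were higher and 4.7% lower. A crossed pairing, added after seeing the data, gave 1 and 9 Rab genes and 14 and 23 pathway genes, where 9.32% and 19.6% of all genes were called.

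The log2 change turned from below to above 0 for Rab27a (0.041 and 0.031), Rab40c (0.041 and 0.032) and Rab8b (0.099 and 0.089) after the removals of immunoglobulin genes and of all 3 classes, for Rab8b also with quantile normalization (0.0059) and without old replicate 2 (0.0073, the range with a library left out being -0.19 to 0.0073), and for the family sum after the removals (0.047 and 0.037). The log2 ratio of Rab38 to Rab32 was 0.022 and ranged from -0.071 to 0.11 with a library left out. The directions of Rab44, Rab29 and Rab27b held in all 16 alternatives, Rab44 passing the test in 10, Rab29 in 11 and Rab27b in 1.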

Other observations

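The authors' deposited table of 1255 changed genes held 3 Rab genes, Rab27b, Rab44 and Rab40b, of which Rab44 is also called in limma's test. The authors' deposited table lists Rab27b at a log2 fold change of -0.34, with SE 0.15 and adjusted p 0.0264. In the authors' deposited table Rab40b stands at 0.48 on the log2 scale, with SE 0.71 and adjusted p 0.0387, and it was at 0.140 and 0.145 TPM in young and 0.450 and 0.942 TPM in old libraries, too low for the minimum used here. Its listed SE exceeds its fold change, so that p cannot come from their ratio. How the authors' fold changes were scaled is not stated, and their sizes cannot be set directly against limma's.

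The mean normalized count in the authors' deposited table was set against the mean TPM of the same gene times its exon length in GENCODE M21, matched by symbol for 1202 of the 1255 genes. Its median was 10.3, with 5.80 and 28.6 as the 10th and 90th percentiles. For Rab27b it was 99.3, rank 16 of 1202, and for its effector Sytl4 it was 55.7, rank 44. The 5 megakaryocyte markers in the table lay at 39.0 to 276, with Pf4 at rank 1, Gp5 at rank 4 and Itgb3 at rank 71. Rab40b was at 92.8, but its TPM is near 0. Rab44 was at 5.95, rank 1072, among the lower values. Whether the authors' means and the TPM values come from the same libraries was not tested.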
